A study of Rattus norvegicus with 22 samples.

Results

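Principal cells (PC) were examined in the single-nucleus RNA-Seq annotation of rat kidney that the authors deposited. The members were all nuclei that this annotation names PC, and there were 15341 of them among 310282 nuclei of 16 annotated types in 22 libraries. The neighbouring distal types held 7102 type A intercalated (IC_A), 6204 type B intercalated (IC_B), 17955 distal convoluted tubule (DCT) and 38543 loop of Henle (LOH) nuclei. The annotation has no separate class for the connecting tubule. The study found connecting tubule cells on subclustering its DCT and PC cells, so nuclei counted here as PC or DCT may include them.

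Whole kidneys of male Sprague-Dawley rats were studied in 5 groups. Control rats (5 libraries) were sham operated, kept both kidneys, and received sesame oil and tap water. Rats of the other groups had 1 kidney removed, received deoxycorticosterone acetate (DOCA) at 50 mg/kg each week under the skin, and drank salt water. They were given by daily gavage either vehicle (DOCA, 5 libraries), finerenone at 10 mg/kg (5 libraries), spironolactone at 50 mg/kg (5 libraries) or amiloride at 20 mg/kg (2 libraries). The labels give removal of a kidney for the amiloride group too, whereas the study's methods leave that group out of those operated on. By the labels, loss of a kidney, DOCA and salt came together in every group but Control, so their parts in a difference from Control cannot be told apart. The label field for age reads 6 weeks for all Control and amiloride samples. In each of the DOCA, finerenone and spironolactone groups, 4 samples are marked 6 weeks and 1 is marked 3 weeks. These numbers equal the durations of treatment in the study's methods, and the ages of the rats are not given in the sources used here.

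Principal cells line the connecting and collecting segments and are the classic target of mineralocorticoids in the kidney. Aldosterone or DOCA binds the mineralocorticoid receptor in these cells, which raises the abundance and activity of the epithelial sodium channel ENaC on the side of the urine and of the sodium-potassium pump on the side of the blood. Vasopressin acts on the same cells through the water channel aquaporin 2. Finerenone is a nonsteroidal and spironolactone a steroidal antagonist of the receptor, whereas amiloride blocks ENaC itself. Intercalated cells lie between the principal cells and move acid (type A) or bicarbonate (type B), and the DCT upstream reabsorbs sodium chloride through the thiazide-sensitive cotransporter.

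The 2 markers chosen for the class, Aqp2 (aquaporin 2) and Scnn1g (the gamma subunit of ENaC), could not be read, since gene values were not analysed here. The study names Aqp2 as its marker of principal cells and calls ENaC a classic one. The position of the nuclei on the deposited UMAP, a flat map on which nuclei with similar transcripts lie close together, is no check of the label, since the authors made the map and the clusters behind the names from the same data.

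The annotation names each library and its treatment, but no library name matched a single sample, so libraries were not linked to time points. No test between treatments was made for that reason, and each library's value is given instead, with the median over libraries. Several library names share a number across treatments, such as RK12.2 in Control, RK12.2.Old.MO in Control and RK12.2.New.MO under amiloride. Whether such libraries came from 1 rat is not given in the sources used here, so there may have been fewer rats than libraries. An Old or New tag stands in 11 of the library names, and 5 of these, 1 in each treatment, also end in MO. The samples were deposited in an earlier and a later batch. In each treatment, the names without a tag are as many as the samples of the earlier batch. The names with a tag are as many as those of the later batch, which holds every sample marked with the shorter time. Whether the libraries follow these batches, so that tag and time go together, was not tested. The labels of 11 samples list a Multiome kit, which reads RNA and open chromatin of the same nucleus. The study's methods instead name 5 samples made with it, as many as the MO libraries. No source used here says that MO stands for this kit, so the libraries are called by the letters in their names. Nuclei per library ranged from 759 to 48403, and PC nuclei per library from 30 to 2127. Of all distinct barcodes, 3.26% occurred in more than 1 library, at most 3.12% of the smaller library in any pair, and 29 barcodes were PC in more than 1 library. Pairs of MO libraries shared 2.01% to 3.12%, whereas an MO library shared at most 0.0197% with any library of another kind.

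The share of principal cells in the collecting duct overlapped between DOCA-treated and Control rats. The PC share of collecting duct nuclei (PC, IC_A and IC_B together) was 50.8%, 52.8%, 52.9%, 56.7% and 60.5% in the Control libraries. It was 41.6%, 48.9%, 53.9%, 54.1% and 64.2% in the DOCA libraries. The medians of 52.9% and 53.9% differed by 0.98 percentage points, and the DOCA libraries lay on both sides of the Control range, with 2 below and 1 above it. The direction of this difference turned when any of 6 of the 10 libraries was left out, giving -1.52 to 1.12 points.

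With the 2 receptor antagonists the share again spread over the same range. It was 43.7%, 45.6%, 51.4%, 53.4% and 58.9% in the finerenone libraries, and its median differed from that of DOCA by -2.46 points. Under spironolactone it was 41.9%, 43.6%, 48.4%, 58.7% and 62.4%, and its median differed from that of DOCA by -5.46 points. No library of either drug lay outside the range of the DOCA libraries. Without the spironolactone library RK4.2 or RK6.1 the latter difference shrank to -0.30 points, and it turned to 1.78 points when nuclei were pooled and to 1.53 points among tagged libraries (names with an Old or New tag, MO included). The difference under finerenone turned to 0.044 points without the DOCA library RK7.1 or RK9.1.Old.MO. It also ran in opposite directions by kind of library, at 7.29 points among libraries with no Old or New tag in their names (untagged) and -13.5 points among tagged libraries.

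The 2 amiloride libraries lay far apart. The library RK12.2.New.MO had the lowest share of any library, 29.8% (exact 95% confidence interval 27.4% to 32.4%), and RK11.2.New had 63.1% (60.6% to 65.6%). Such intervals hold only the error of counting nuclei, and the spread between rats comes on top. In RK12.2.New.MO both types of intercalated cell were plentiful against PC nuclei, with 0.785 PC nuclei per IC_A nucleus and 0.926 per IC_B nucleus, the lowest of the 22 libraries for each ratio. With values this far apart, their median of 46.5% describes neither library.

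**Figure D1:**
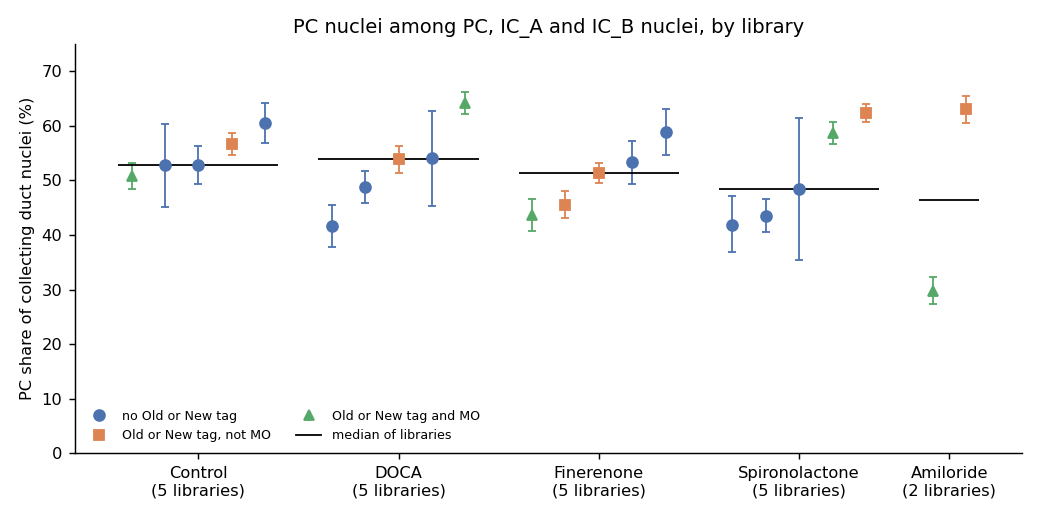
PC share of collecting duct nuclei in percent, 1 point per library, with exact 95% confidence intervals for counting error, the median of each treatment as a line, and marker shapes for the kind of library name. The libraries of the 4 treatments with 5 libraries overlap, and the 2 amiloride libraries sit at 29.8% and 63.1%.

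Expressed as a ratio, there was close to 1 PC nucleus per intercalated nucleus. The ratio of PC to IC_A plus IC_B nuclei had a median of 1.12 in Control (1.03 to 1.53 over libraries), 1.17 in DOCA (0.713 to 1.79), 1.06 under finerenone (0.775 to 1.43) and 0.938 under spironolactone (0.721 to 1.66). The 2 amiloride libraries had 0.425 and 1.71. Split by type, the median ratio to IC_A was 1.97 in Control and 1.82 in DOCA, and that to IC_B was 3.58 in Control and 2.37 in DOCA. All of these ranges overlapped between Control and DOCA.

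The ratios to the single intercalated types overlapped between kinds of library. PC nuclei per IC_A nucleus ranged from 0.957 to 2.07 in the 11 untagged libraries (median 1.67), from 1.78 to 4.20 in the 6 tagged libraries without MO (median 2.40) and from 0.785 to 2.85 in the 5 MO libraries. PC nuclei per IC_B nucleus ranged from 1.75 to 6.95, from 1.59 to 3.58 and from 0.926 to 4.82 in the same order. The highest ratio to IC_A, 4.20, was in the spironolactone library RK6.1.New, whereas RK6.1, another spironolactone library with the same number in its name, had 1.38. These 2 libraries also differed in the PC share of collecting duct nuclei (62.4% and 43.6%) and in the LOH share of distal nuclei (62.0% and 42.0%). The part of the kind of library in the differences between treatments was not tested.

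Among distal nuclei (LOH, DCT, PC, IC_A and IC_B together), the PC share had a median near 21% in Control and lower medians with both antagonists. It was 18.4%, 21.0%, 21.1%, 21.5% and 24.2% in Control and 15.6%, 20.9%, 22.6%, 24.3% and 25.3% in DOCA. Under finerenone it was 13.4%, 16.1%, 16.5%, 18.7% and 22.7%, a difference of medians from DOCA of -6.11 points. Under spironolactone it was 12.0%, 14.7%, 15.3%, 21.7% and 22.6%, a difference of medians from DOCA of -7.28 points. Each drug had libraries inside the DOCA range, and 1 finerenone and 3 spironolactone libraries lay below it. Without the spironolactone library RK4.2, RK6.1 or RK6.1.New, the difference for this drug was as small as -4.06 points. Among untagged libraries alone the finerenone difference was -1.87 points. The amiloride libraries had 15.1% and 27.8%.

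The distal shares depended on LOH nuclei, the largest distal type over all libraries. LOH nuclei were 18.5% to 62.0% of distal nuclei over libraries. With LOH left out of the denominator, the median PC share was 32.3% in DOCA, 30.04% under finerenone and 31.5% under spironolactone, so that the differences from DOCA shrank to -2.26 and -0.78 points. Control then had the highest median, 38.1%, and DOCA differed from it by -5.76 points instead of 1.43 points. PC nuclei per LOH nucleus had medians of 0.47 in Control, 0.686 in DOCA, 0.385 under finerenone and 0.364 under spironolactone.

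**Figure D2:**
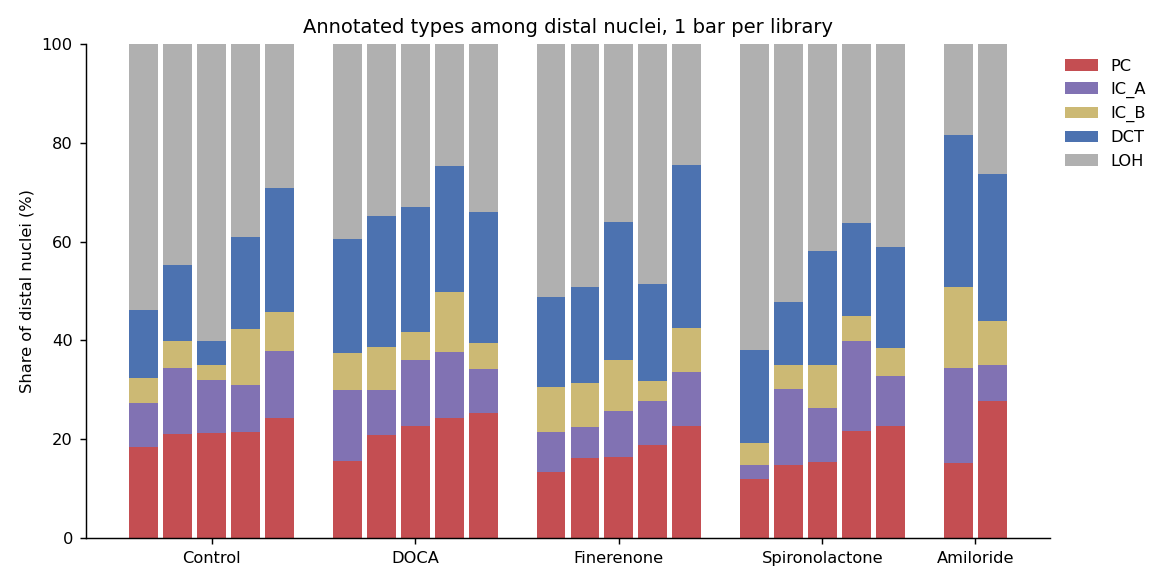
Share of distal nuclei in percent held by each annotated type, 1 stacked bar per library, ordered within a treatment by the PC share at the bottom. The PC share runs from 12.0% to 27.8%, while the LOH share at the top runs from 18.5% to 62.0%.

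The ratio of PC to DCT nuclei was the distal measure that separated Control from DOCA. There were 0.965, 1.16, 1.35, 1.36 and 4.20 PC nuclei per DCT nucleus in the Control libraries, and 0.679, 0.786, 0.889, 0.953 and 0.955 in the DOCA libraries. All 5 DOCA libraries lay below all 5 Control libraries, but the nearest pair were 0.955 and 0.965, with counting intervals of 0.888 to 1.03 and 0.845 to 1.10. The values were 0.965 to 4.20 against 0.679 to 0.953 among untagged libraries, and 1.16 and 1.35 against 0.786 and 0.955 among tagged libraries. Any subset keeps the order once all libraries do, so these subsets are no further check of it.

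Neither type alone carried this separation. The DCT share of all nuclei ranged from 2.00% to 6.91% in Control (median 5.26%) and from 4.46% to 10.0% in DOCA (median 6.96%). The PC share of all nuclei ranged from 5.99% to 8.38% in Control (median 7.08%) and from 3.03% to 9.57% in DOCA (median 6.64%), and both pairs of ranges overlapped. The ratios of PC to monocytes (Mono) and to proliferating tubule nuclei (Prolif_Tubule) were also lower in all DOCA than in all Control libraries. That makes 3 of 15 ratios of PC to other types. The Prolif_Tubule share of all nuclei was itself higher in DOCA without overlap (0.936% to 1.71%, against 0% to 0.495% in Control). The Mono share was 0.481% to 1.28% in DOCA and 0.264% to 0.485% in Control. Over all 120 ratios between 2 types, 16 did not overlap between these groups in either direction, which is 13.3%.

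The same ratio was low under finerenone and spread widely under spironolactone. It was 0.59, 0.687, 0.731, 0.826 and 0.958 in the finerenone libraries, all below the lowest Control library. It was 0.637, 0.668, 1.10, 1.15 and 1.17 in the spironolactone libraries, with 2 below and 3 above the DOCA range. The amiloride libraries had 0.491 and 0.935, both below Control, where 20.8% of all ratios did not overlap. Against DOCA, none of the 15 ratios of PC to other types was free of overlap under finerenone or spironolactone (backgrounds of 0% and 1.67%). Under amiloride 1 was higher (to lymphocytes) and 1 lower (to podocytes), with a background of 15.8%.

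**Figure D3:**
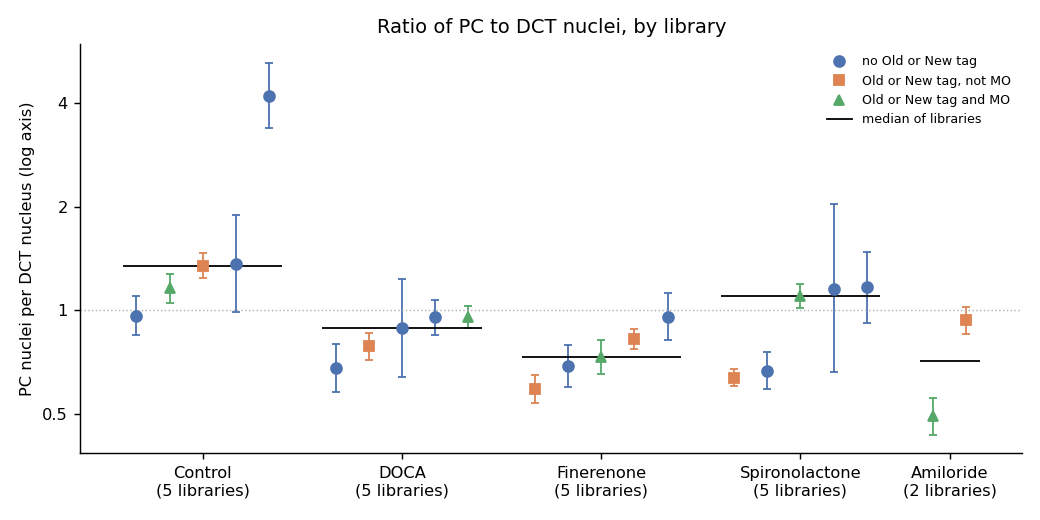
PC nuclei per DCT nucleus on a log axis, 1 point per library, with exact 95% confidence intervals for counting error and the median of each treatment as a line. The 5 DOCA libraries (0.679 to 0.955) lie below the 5 Control libraries (0.965 to 4.20), whose highest point stands apart.

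As a share of all nuclei, PC nuclei had their lowest median under finerenone (3.80%), close to that under spironolactone (3.95%), and the libraries of these drugs overlapped. The 5 finerenone libraries had 1.49%, 3.65%, 3.80%, 3.94% and 4.89%, all below the 5 Control libraries at 5.99%, 6.67%, 7.08%, 7.59% and 8.38%. The medians differed by -3.28 points, and leaving out each library gave -3.53 to -3.07 points. Of the 16 types, 2 did not overlap between these groups (12.5%), PC and IC_A, both lower with finerenone. Against nuclei outside the proximal tubule, the PC share was 7.08% to 10.7% under finerenone and 12.6% to 14.5% in Control, again without overlap. By this denominator the median was lower under spironolactone (8.82%) than under finerenone (9.37%). Of the 15 ratios of PC to other types, 5 were lower in all finerenone libraries (DCT, Lymphocyte, Mono, Prolif_Tubule and iPT, the injured proximal tubule). Over all 120 ratios, 8 did not overlap (6.67%). These 8 include the 5 of PC, so this background is no separate reference for them.

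Against DOCA, the finerenone libraries overlapped. The DOCA libraries had 3.03%, 4.06%, 6.64%, 6.73% and 9.57% PC among all nuclei, so that only the finerenone library at 1.49% lay below them. In this comparison 1 of 16 types, IC_A, did not overlap (6.25%). The spironolactone libraries had 2.42%, 3.23%, 3.95%, 6.04% and 6.31%, of which 3 were below all Control libraries, and the amiloride libraries had 3.91% and 8.33%. The PC share overlapped in each of these comparisons, whereas 6.25% of types did not overlap between spironolactone and Control or between amiloride and DOCA, and 18.8% did not between amiloride and Control. Against Control, 2 of 15 ratios were lower under spironolactone (Mono and Prolif_Tubule), with a background of 11.7%. A share of all nuclei falls when other types rise, so fewer PC nuclei and more nuclei of other types cannot be told apart here.

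The fold between the highest and the lowest library differed by denominator. The highest PC share over the 22 libraries was 6.43 times the lowest among all nuclei, 2.32 times among distal nuclei and 2.15 times among collecting duct nuclei. A share has an upper limit, which holds its fold down more where the share is large, so these folds are not on a like scale. As a ratio, PC to IC nuclei ran from 0.425 to 1.79 over the same libraries. The SD over libraries was 10.3, 5.84 and 5.74 times the median SD from counting for the same denominators, so counting error was a small part of the spread. The number of nuclei in a library had little relation to its PC share of all nuclei (Pearson's r = -0.07 and Spearman's rho = -0.08 with log10 nuclei, n = 22 libraries).

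Over the 22 libraries, PC shares rose and fell with those of other distal types. Of all nuclei, the PC share had r = 0.56 with the DCT share, 0.48 with LOH, 0.47 with IC_A and 0.30 with IC_B, and -0.32 with the proximal convoluted tubule (PCT). All shares of a library have the same total, which ties them together. Among nuclei outside the proximal tubule, r was 0.44 with DCT, 0.14 with IC_A, 0.15 with IC_B and 0.07 with LOH. These values are descriptions over libraries from 5 treatments.

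On the UMAP, PC nuclei formed a single island next to the DCT. Of 15341 PC nuclei, 15232 (99.3%) lay in 1 connected area, and 97.2% of their 30 nearest neighbours were PC. The map and the cell types come from the same data, so a type's nuclei lie together by construction. In draws of at most 5000 nuclei a type, the share of neighbours of the own type was 93.7% to 99.9% over the 16 types and 97.4% for PC. For 66.6% of PC nuclei all 30 neighbours were PC, and 159 nuclei (1.04%) had more neighbours of other types than PC neighbours. The leading other neighbour was the DCT, with 1.81% of neighbours, followed by LOH with 0.422%. IC_A nuclei made up 0.0945% and IC_B nuclei 0.0126% of the neighbours, although both share the collecting duct with principal cells. The median position of PC nuclei lay 4.90 units from that of the DCT, 6.72 from IC_A, 9.95 from IC_B and 9.99 from LOH. Distances on a UMAP have no fixed scale, so they give an order on this map only.

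PC nuclei were not spread evenly within their island. Along the first axis they had 2 peaks, with 1578 nuclei in the quarter-unit square at -2.88 and 1105 in the one at -0.875, and the emptiest square between them, at -2.13, held 523. The second peak faced the DCT. The DCT share of neighbours was 1.19% between -3.5 and -3, 0.926% between -3 and -2.5, and 0.699% between -1 and -0.5. It was 9.15% between 0.5 and 1, and 44.6% between 1 and 1.5, so it was high only at the edge. Dividing the island at the emptiest square, a position chosen after the data were seen, put 6909 nuclei (45.4%) on the DCT side. Without gene values neither side was given a name.

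**Figure D4:**
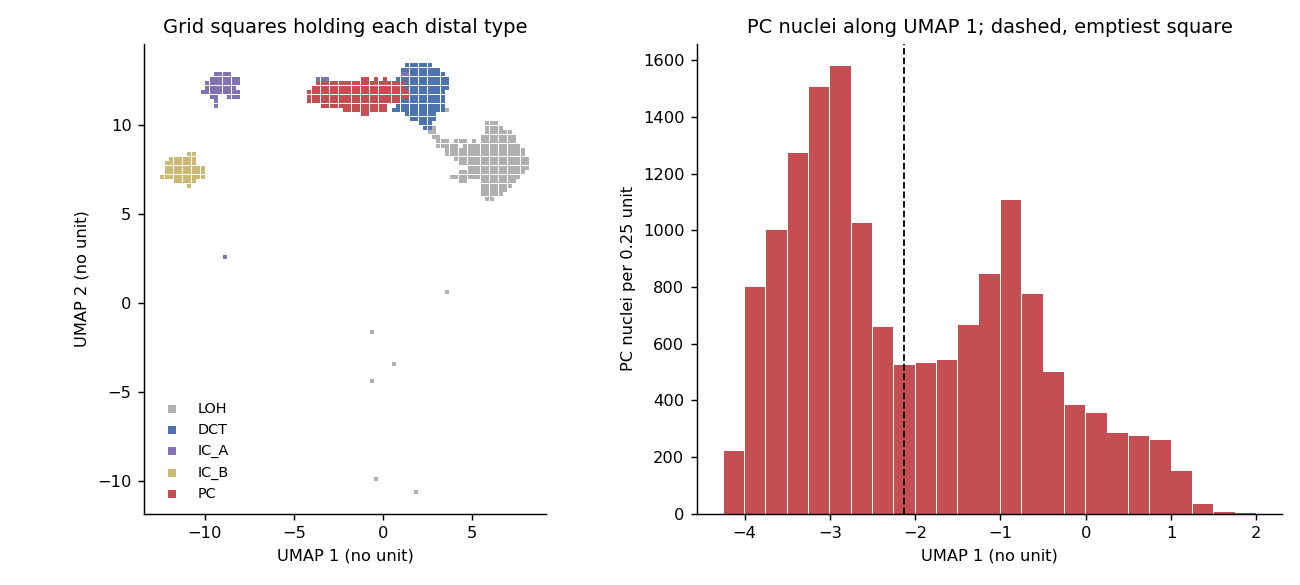
Left, grid squares of 0.25 unit on the deposited UMAP with at least 5 nuclei of a distal type, PC drawn on top; right, PC nuclei per square along the first UMAP axis, with the emptiest square dashed. The PC island touches the DCT, lies apart from IC_A and IC_B, and has its peaks at -2.88 and -0.875.

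The share of PC nuclei on the DCT side had a higher median in DOCA than in the other treatments with 5 libraries. It was 27.1%, 47.3%, 48.9%, 54.4% and 56.0% in Control, and 39.0%, 56.3%, 57.9%, 58.3% and 63.4% in DOCA. The medians differed by 8.94 points, and 4 of the 5 DOCA libraries were above the highest Control library. The fifth, RK2.2.New, is tagged without MO. Among tagged libraries alone the direction turned, to -3.01 points. Under finerenone the share was 26.7%, 35.0%, 46.3%, 55.2% and 58.3%, a difference of medians from DOCA of -11.6 points, and under spironolactone it was 28.1%, 41.6%, 49.4%, 50.0% and 60.9%, a difference of -8.45 points. Without the 2 finerenone libraries of more than 30000 nuclei, RK7.1.New and RK8.2.New, the finerenone difference was -2.65 points, and without either of them it was -7.14 points. The amiloride libraries had 49.95% and 59.6%.

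This share also followed the kind of library. It was 56.0% to 60.9% in the 5 MO libraries and 26.7% to 49.95% in the 6 tagged libraries without MO, with no overlap, while the 11 untagged libraries covered 27.1% to 63.4%. In each treatment the MO library was above every other tagged library of that treatment. The median position of PC nuclei on the first axis was likewise -1.83 to -1.40 in MO and -2.85 to -2.12 in the other tagged libraries. Of 10 types with at least 10 nuclei in every library, 3 (PC, LOH and fibroblasts) did not overlap on this axis between the 2 kinds, a background of 30%. Its part in the differences between treatments was not tested.

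By kind of library, the order of treatments differed. Among the MO libraries the share was 58.3% in DOCA, 56.0% in Control, 58.3% under finerenone, 60.9% under spironolactone and 59.6% under amiloride, so DOCA was not the highest there. Among the tagged libraries without MO it was 39.0% in DOCA, 47.3% in Control, 26.7% and 35.0% under finerenone, 28.1% under spironolactone and 49.95% under amiloride. Among the untagged libraries DOCA was highest. The share on the DCT side was 56.3%, 57.9% and 63.4% in 3 DOCA libraries, 46.3% and 55.2% in 2 finerenone libraries and 41.6%, 49.4% and 50.0% in 3 spironolactone libraries, with no overlap with DOCA for either drug. The median position of PC nuclei on the first axis gave the same order, from -1.89 to -1.42 in DOCA, -2.36 to -1.94 under finerenone and -2.50 to -2.11 under spironolactone. In both of these comparisons PC was the only 1 of 10 types without overlap on this axis. The background of 10% is thus PC itself and gives no reference for it. With 2 or 3 libraries a group, a lack of overlap can also arise by chance. Over all libraries, the share on the DCT side overlapped that of DOCA for both drugs. The 3 untagged Control libraries had 27.1%, 48.9% and 54.4% on the DCT side, below DOCA, but their median positions (-2.76 to -1.86) overlapped those of DOCA, where 30% of types did not overlap. Moving the division by 0.5 unit to either side left overlapping libraries in the Control comparison. With the division moved 0.5 unit away from the DCT, finerenone also overlapped DOCA (54.4% and 71.0% against 60.2% to 65.9%), whereas spironolactone did not (49.0% to 56.7%).

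**Figure D5:**
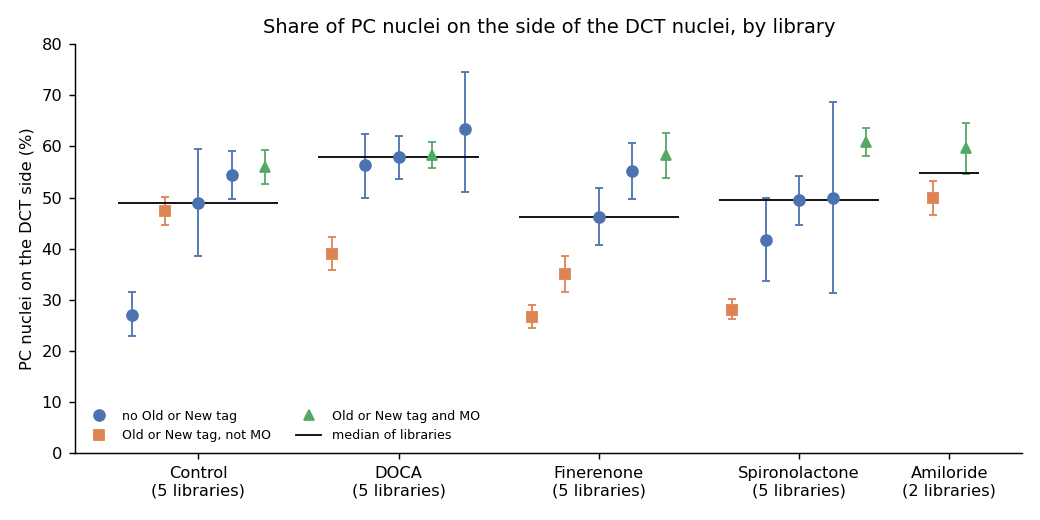
Share of PC nuclei on the DCT side of the island in percent, 1 point per library, with exact 95% confidence intervals for counting error, the median of each treatment as a line and marker shapes for the kind of library name. MO libraries (56.0% to 60.9%) lie above the other tagged libraries (26.7% to 49.95%).

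PC nuclei of 1 library lay together more than an even mixture would give. Among PC nuclei alone, 12.1% of the 30 nearest neighbours came from the same library, against 7.36% for a full mixture, a ratio of 1.65. The ratio was 1.22 for the same kind of library and 1.16 for the same treatment (25.4% of neighbours against 21.8%). Neighbours from the same library count in both of these ratios. Grouping by treatment or kind beyond that of the single library was not tested. With at most 300 PC nuclei from each library, the ratios were 1.5, 1.14 and 1.10 in that order. By library the ratio ran from 0.600 in RK7.1, with 72 PC nuclei, to 2.08 in RK7.1.New, with 1586.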

How the data were processed

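Single-nucleus RNA-Seq of whole rat kidney was annotated by the authors. They aligned reads to rn6 with Cell Ranger (versions 3.0.2 and 6.0.1 in the submitters' processing notes), counting introns, took out ambient RNA (SoupX) and doublets (DoubletFinder), merged and filtered nuclei in Seurat 4.0.1, corrected batches with Harmony, and named clusters from markers. Both UMAP coordinates deposited for a nucleus are scores without a unit, and the library, treatment and cell type deposited for each nucleus are names. Gene values were not analysed here.

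Nuclei named PC were counted per library with Python 3.11.15 and pandas 2.3.3, and exact (Clopper-Pearson) 95% intervals came from scipy 1.17.1. A treatment's value is the median over its libraries. Neighbours were the 30 nearest nuclei on the UMAP, and the island joined quarter-unit squares with at least 5 PC nuclei. The code was tested on simulated data. The planned exact permutation tests were not run because library names matched no samples. No SD over a treatment or p-value is given for that reason. The planned rule for named genes chose none with values. The members and measures were chosen with earlier results of these data known, and the PC to DCT ratio, the comparison of finerenone with Control and the division of the island after the values were seen. Alternatives were pooled nuclei, equal weights, subsets of libraries, each library left out, other denominators, other numbers of neighbours and other grid squares.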

Additional observations from a re-analysis of the deposited data

Results flagged for a closer look

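Of 28 groups of 5 libraries examined, 1 had a library far from the others. The Control library RK12.3 had 4.20 PC nuclei per DCT nucleus, and the next Control library had 1.36. The gap was 0.877 of the range of the 5 libraries, above the critical value of 0.71 for 5 values. Chance flags about 1 in 20 groups. This library had 106 DCT nuclei, 5.04% of its distal nuclei and the lowest DCT share of any library, while LOH nuclei made up 60.1% of them, and its PC share of distal nuclei, 21.1%, was the Control median. It also had the lowest Control share of PC nuclei on the DCT side of the UMAP island, 27.1%. Without it, the difference of medians between DOCA and Control in the PC to DCT ratio was -0.36. Its direction could not turn, since all Control libraries lay above all DOCA libraries.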

How the results depend on the processing

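No paired analysis was possible because the library names give no replicate number of the samples, and no replicate block was fitted. PC shares are in percentage points, and each difference is of medians over libraries. For finerenone against DOCA, the collecting duct share moved from -2.46 to 7.29 with untagged and -13.5 with tagged libraries, the distal share from -6.11 to -1.87 with untagged libraries and -2.26 without LOH, and the PC to IC ratio from -0.11 to 0.33 (untagged), -0.64 (tagged), 0.25 (IC_A alone) and -0.54 (IC_B alone). Without LOH, the distal share moved to -5.76 for DOCA against Control and -0.78 for spironolactone against DOCA. Against IC_B alone, the PC to IC ratio moved to -1.21 and 0.55 for these comparisons. The PC to DCT ratio for spironolactone against DOCA moved from 0.21 to -0.11 when nuclei were pooled and -0.0018 with tagged libraries, and to between -0.0048 and 0.26 without a single library. The DCT-side share with tagged libraries moved to -3.01 for DOCA against Control and 6.15 for amiloride against DOCA. Without the MO libraries, which left 1 amiloride library, amiloride against DOCA gave 11.7 (collecting duct share), 6.04 (distal share), 0.65 (PC to IC) and 0.097 (PC to DCT). With the MO libraries kept, the ratio to IC_A alone gave 0.48 for this comparison. Starting from all libraries, leaving out each one gave -24.0 to 9.24 (collecting duct share), -7.45 to 5.18 (distal share), -0.74 to 0.54 (PC to IC) and -0.40 to 0.046 (PC to DCT). The causes were not tested. On the UMAP, 10 and 100 neighbours gave 97.1% and 97.2% PC neighbours, 0.5-unit squares gave 2 islands with 99.6% in the larger, and at most 300 PC nuclei per library took the same-library ratio from 1.65 to 1.5. The PC to DCT ratio kept its direction for DOCA and for finerenone against Control in every alternative run. Libraries that do not overlap keep their direction in any subset, mean or pooling, so this was fixed in advance. The smallest libraries held 30, 72 and 94 PC nuclei, which limits their shares to wide intervals.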
